A study of Mus musculus with 2 samples.

Results

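The regions described here are the ATAC-seq peaks that lie in the second or a later intron of a gene, in primary murine cardiac fibroblasts given siRNA against Piezo2 or scrambled siRNA. Members were the rows of the deposited peak table whose annotation names an intron other than the first of its transcript, which gave 17087 of 63316 peaks (27.0%). One library came from cells given scrambled siRNA (SCR, titled NC in the labels) and the other from cells given siRNA against Piezo2 (siPiezo2). Both received TGF-β, 5 ng/ml over 24 h, so neither is an untreated control, and there was 1 library per condition. The description of the series names Tet3 knockout cells made with Cre instead, and the methods name minced tissue as the starting material, and these differences were not settled here. No difference between the libraries has a replicate check, no p-value is given, and intervals cover counting error only.

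ATAC-seq uses the Tn5 transposase, which inserts sequencing adapters where DNA is not wrapped tightly in nucleosomes, so that reads pile up over open chromatin. Open sites within introns are often enhancers, which are short regions bound by transcription factors that act on the host gene or on another gene nearby, while promoters lie at transcription start sites (TSS). In fibroblasts activated by TGF-β, enhancers of matrix and contractile genes are known to be bound by SMAD, AP-1, TEAD and SRF factors. Piezo2 is a mechanically gated cation channel.

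Each peak has 1 read density per library, normalized by the authors, and the ratio used here is log2((siPiezo2 + 1)/(SCR + 1)), on which 0 means equal density and negative values mean a lower density in the siPiezo2 library. Peaks with (siPiezo2 + 1)/(SCR + 1) below 0.66 are called lower and those above 1.5 are called higher, for short below 0.66 and above 1.5 of SCR. Whole reads in windows of 2000 bp were recovered from the table. Over all peaks, SCR held 4615335 and siPiezo2 2754046 of them, and a median later intron peak held 53 SCR reads and 33 siPiezo2 reads. Of the cardiac fibroblast markers, 8 of 10 had a peak within 1 kb of the TSS, all but Thy1 and Lum, and these summed to a density of 455 for SCR and of 399.9 for siPiezo2. Such peaks were found for 0 of 8 macrophage and leukocyte markers, 1 of 8 endothelial, 1 of 8 cardiomyocyte, 2 of 8 smooth muscle and pericyte and 4 of 6 epicardial markers.

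Peaks in later introns were, on the authors' scale, lower in the siPiezo2 library more often than higher. Their log2 ratio had a median of -0.17 with quartiles of -0.45 and 0.098, and 66.3% lay below 0. In all, 2607 peaks (15.3%) were called lower, where 13.5% of all 63316 peaks were, and 563 (3.29%) were called higher, where 3.21% of all peaks were. The median over all peaks was -0.13. The direction of the median depended on the scaling. When the recovered reads were set to the same total in both libraries, the later intron median was 0.0077, 1398 peaks (8.18%) were lower and 1478 (8.65%) were higher, against 7.42% and 8% of all peaks. Lower peaks made up 82.2% of the later intron peaks past either threshold on the authors' scale, 60.7% after scaling by the median of ratios over all peaks, and 48.6% at equal read totals. Of the 2607 peaks called lower on the authors' scale, 1378 were also called lower at equal totals, and of the 563 called higher, 556 were also called higher.

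The calling of peaks moved with the ratio. Of the later intron peaks, 12248 (71.7%) had been called in the SCR library only and had a median of -0.23, 4480 (26.2%) had been called in both and had a median of -0.032, and 359 (2.10%) had been called in siPiezo2 only and had a median of 0.63. SCR was the deeper library, and the part of depth in these shares was not tested. At the later intron peaks called in both libraries the spread of the ratio was 2.42 times the variance that counting alone gives, and 2.15 times at all peaks called in both, so the counting intervals below are too narrow for the libraries themselves.

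Later introns resembled first introns and intergenic regions and stood apart from promoters. The median log2 ratio was -0.15 at 9482 first intron peaks, of which 14.1% were lower and 2.75% higher. It was -0.18 at 19430 distal intergenic peaks, of which 16.6% were lower and 4.02% higher. At 9251 promoter peaks within 1 kb of a TSS it was -0.030, with 5.86% lower and 1.98% higher. The median of later introns thus lay 0.016 below that of first introns, 0.0068 above that of distal intergenic peaks and 0.14 below that of promoters. Promoter peaks had been called in both libraries more often, at 60.4%, and held a median of 85 reads in SCR. The differences between classes also moved with scaling. At equal read totals later introns lay 0.041 below promoters, 0.0065 above first introns and 0.012 below distal intergenic peaks, so the order against first introns and distal intergenic peaks turned. Among peaks called in both libraries, later introns lay 0.0065 below distal intergenic peaks.

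**Figure D1:**
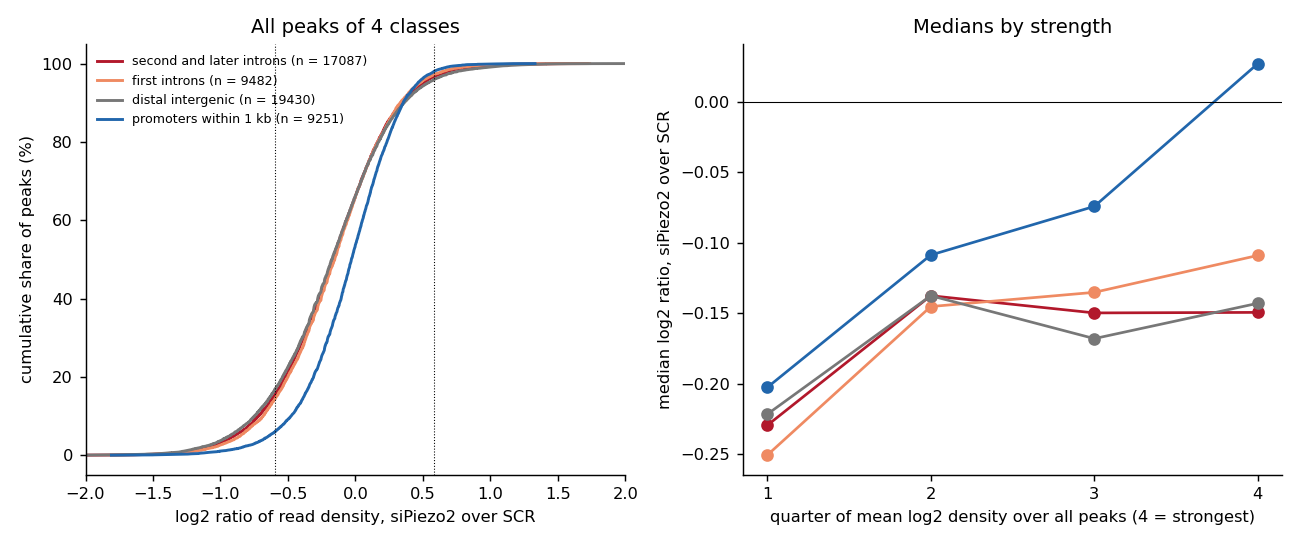
The left panel plots the cumulative share of peaks in percent against the log2 ratio of read density, siPiezo2 over SCR, for later introns, first introns, distal intergenic regions and promoters, with dotted lines at 0.66 and 1.5 of SCR. The right panel plots the median log2 ratio of the same classes, in the same colours, in 4 equal groups of mean log2 density over all peaks, 4 being the strongest. The promoter curve lies to the right of the other curves over most of its range, and in the strongest group its median was 0.027 against -0.15 for later introns.

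The distance from promoters depended on peak strength and was wide only among the strongest peaks. All peaks were divided into 4 equal groups by mean log2 density. In the strongest group, 2907 later intron peaks had a median of -0.15 with 12.9% lower, and 4821 promoter peaks had a median of 0.027 with 2.76% lower. For first introns of that group the median was -0.11, and for distal intergenic peaks -0.14. In the other groups, from the weakest up, the medians were -0.23, -0.14 and -0.15 for later introns and -0.20, -0.11 and -0.074 for promoters. Among peaks called in both libraries, the strongest group had a median of -0.10 at 2169 later intron peaks and of 0.054 at 4056 promoter peaks. From the weakest group up, the other medians of such peaks were 0.22, 0.089 and -0.0086 for later introns and 0.078, 0.077 and 0.017 for promoters. Of the weakest later intron peaks, only 132 of 5107 had been called in both libraries, and as calling in siPiezo2 depends on the density there, these medians are no comparison of the classes.

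The same comparison was made within genes, on the authors' scale only. Between the classes, the difference from promoters was -0.14 on that scale and -0.041 at equal read totals. For 2590 genes with a peak in a later intron and at a promoter, the densities of each kind were summed, and the later intron ratio was below the promoter ratio in 1631 genes (63.0%), with a median difference of -0.13. Among the 491 of these genes with 5 or more later intron peaks, it was below in 326 (66.4%), with a median difference of -0.15. Against first introns, the median difference was -0.018 over 2194 genes, and later introns were the lower of the pair in 51.7%. Across genes, the later intron and promoter ratios had a Pearson correlation of 0.087 over the 2590 genes, and those of later and first introns 0.13 over the 2194, where both values of a gene come from the same 2 libraries.

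Position within the gene made little difference. The median log2 ratio was -0.17 in 4864 peaks of intron 2, -0.16 in 2731 of intron 3, -0.18 in 1736 of intron 4, -0.19 in 1210 of intron 5 and -0.17 in 6546 of intron 6 or later. The share called lower lay between 14.7% and 16.0% in these groups. In 5 equal stretches of the gene from its start to its end, the medians lay between -0.18 and -0.17. By distance to the nearest TSS of any gene, the median went from -0.14 at 1653 peaks within 3 kb to -0.19 at 1238 peaks over 100 kb away, and the share called lower from 12.9% to 17.9%. This order was lost at equal read totals, where the medians of the 5 ranges from near to far were 0.022, 0.0076, 0.015, 0.0076 and 0.015. Peaks also grew weaker along this range, with 23.2% in the strongest group within 3 kb and 8.89% over 100 kb, and the part of strength in this order was not tested. The 432 later intron peaks within 1 kb of a TSS, whose windows take in that start site, had a median of -0.13 with 10.4% lower.

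For 5451 of the peaks (31.9%) the nearest TSS belonged to a gene other than the host. These peaks had a median of -0.16 and the 11636 nearest to their own host's TSS one of -0.17. Neighbouring later intron peaks varied together only at short range. The Pearson correlation of the log2 ratio between adjacent peaks was 0.64 for 1223 pairs under 2 kb apart, whose counting windows share reads. It was 0.14 for 1202 pairs between 2 and 5 kb, 0.078 for 4825 pairs between 5 and 20 kb and 0.047 for 5270 pairs between 20 and 100 kb.

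Among strong peaks in later introns, the lowest had densities of 56.3 to 88.1 in SCR and 19.3 to 31.1 in siPiezo2. These are the 10 lowest log2 ratios in the strongest 25% of all peaks, each in a different gene, and 8 of them had been called in SCR only. Coordinates are as deposited, where the gene coordinates are those of the mouse assembly GRCm39. The lowest lay in intron 11 of 13 of Dlgap1, a scaffold protein of the postsynaptic density (chr17:71101197-71101728). Its density was 85.6 in SCR and 22.3 in siPiezo2, from 217 and 34 reads, a log2 ratio of -1.89 (95% interval -2.46 to -1.37). Its nearest TSS, 11.5 kb away, was that of another gene. Next was a peak in intron 4 of 6 of Nuak1, a kinase related to AMPK (chr10:84219129-84219661), with densities of 73.8 and 25.5 and a log2 ratio of -1.499 (-2.04 to -0.995), called in both libraries. In Poln, a DNA polymerase, intron 18 of 24 held a peak (chr5:34232551-34233041) with densities of 56.3 and 19.3. In Dpysl2, which transmits collapsin signals to microtubules, intron 7 of 13 held one (chr14:67063682-67064347) with densities of 80.6 and 28.2. Pepd, the dipeptidase that releases proline from collagen fragments, had a peak in intron 3 of 14 (chr7:34629272-34629797) with densities of 76.3 and 26.8 and a log2 ratio of -1.47 (-1.996 to -0.981).

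The other 5 of these 10 had densities of 67.9 to 88.1 in SCR. Phldb2, which anchors microtubules at the cell cortex near focal adhesions, had a peak in intron 2 of 17 (chr16:45630585-45630791) with densities of 81.9 in SCR and 29.6 in siPiezo2. Kif26b, a kinesin family member, had one in intron 4 of 14 (chr1:178618213-178618629) with 72.2 and 26.8. Dgkd, a diacylglycerol kinase, had one in intron 2 of 29 (chr1:87808605-87809044) with 67.9 and 24.7. Its window takes in a TSS of Dgkd 0.667 kb away. Ak5, an adenylate kinase, had one in intron 6 of 13 (chr3:152274381-152275182) with 72.5 and 26.8, and the last was in intron 4 of 4 of the noncoding gene Gm36607 (chr13:70872257-70873141) with 88.1 and 31.1. All 10, picked for low ratios in these same reads, were below SCR at equal read totals too, with log2 ratios of -1.89 to -1.39. The peak next after the 10 had a log2 ratio of -1.397 and the last of the 10 one of -1.398.

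The highest strong peaks lay in 6 genes. The highest was in intron 3 of 26 of Chl1, a cell adhesion molecule of the L1 family (chr6:103626007-103626347), with densities of 466 in SCR and 1535 in siPiezo2, from 1534 and 1861 reads, a log2 ratio of 1.72 (1.62 to 1.82). At equal read totals it was 1.02. Near the start of chromosome 11, Drg1, which codes for a GTP-binding protein, and Sfi1, which codes for a centrin-binding protein, held 5 of the 10. The strongest in Drg1 (chr11:3146465-3146891, intron 2 of 3) had densities of 239 and 682, and the strongest in Sfi1 (chr11:3134310-3135614, intron 3 of 31) had 249 and 651. Their log2 ratios were 1.51 (1.36 to 1.65) and 1.38 (1.24 to 1.53), and at equal totals 0.997 and 0.88. These 5 peaks share counting windows with other peaks. Sfi1 is known to have near-identical copies in the mouse genome, so reads there may not be assigned to a single place. Over 500 SCR reads were found in 7 later intron peaks in all. The Chl1 peak, 3 in Drg1 and 2 in Sfi1 were among them and were higher, and the peak in Ccn2 described below was lower.

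The other 4 were weaker. The uncharacterised gene 2700054A10Rik held 2 of them in intron 2 of 5, 1 with densities of 71.7 and 168 (chr17:13772441-13772676) and 1 with 62.0 and 143 (chr17:13773135-13773405). Hjurp, the chaperone that loads the centromeric histone CENP-A, had a peak in intron 6 of 7 (chr1:88196391-88196651) with densities of 26.4 and 68.0, from 66 and 106 reads, a log2 ratio of 1.33 (0.88 to 1.80). It was the only 1 of the 10 called in siPiezo2 alone, and its window takes in a TSS of Hjurp 0.593 kb away. Tacc2, a coiled-coil protein of the centrosome, had one in intron 5 of 6 (chr7:130272960-130273394) with 26.8 and 63.4. At equal totals the 10 highest had log2 ratios of 0.77 to 1.40.

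**Figure D2:**
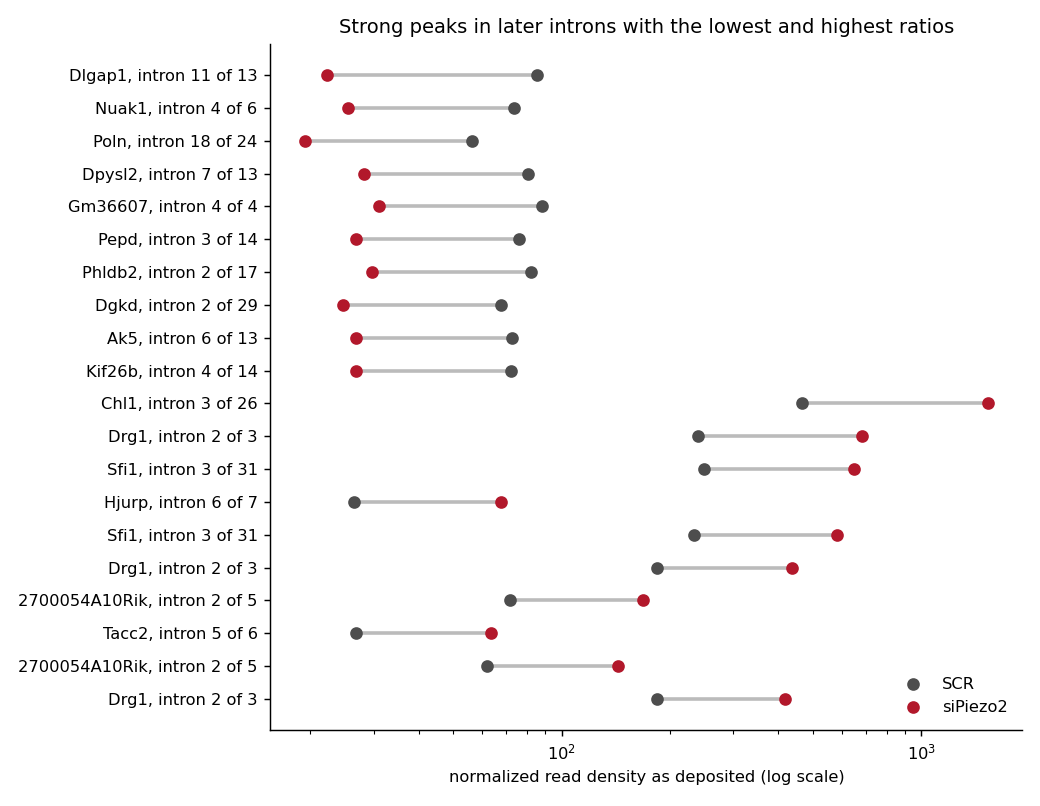
Each line is 1 of the 20 strong later intron peaks with the lowest and highest ratios, named by host gene and intron, with the normalized read density in SCR (grey) and siPiezo2 (red) on a log axis. The 10 lowest lie between 56.3 and 88.1 in SCR and between 19.3 and 31.1 in siPiezo2, and the highest reach 466 and 1535 at Chl1.

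A choice of strong peaks by mean density, made after seeing the data, kept 14 of these 20 and brought in a lower one. In the last of 10 introns of Stambpl1, a deubiquitinase gene next to the smooth muscle actin gene Acta2, a peak (chr19:34217010-34217467) had densities of 80.7 in SCR and 12.4 in siPiezo2, from 199 and 19 reads. Its log2 ratio was -2.61 (-3.37 to -1.93), the lowest of all 17087 later intron peaks, and its nearest TSS, 14.4 kb away, was that of another gene.

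The later intron peaks fell in 6417 host genes. Of these, 3249 had 1 such peak, 2224 had 2 to 4 and 944 had 5 or more, and the last group held 47.1% of the peaks. Densities were summed over the later intron peaks of each gene. The summed ratio had a median of -0.16 over all hosts and was below 0 in 4467. Counting intervals, taken from peaks whose windows do not overlap, lay below 0 for 1136 hosts (17.7%) and above 0 for 166 (2.59%). At equal read totals they lay below 0 for 542 (8.45%) and above 0 for 543 (8.46%), and 533 were below and 163 above under both scalings. Among the hosts with 5 or more peaks, whose intervals are narrower, 148 were below and 18 above under both.

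The genes with the most later intron peaks were mostly long and mostly a little lower. Fgfr2, a receptor for fibroblast growth factors, had 58 peaks, of which 55 were assigned to intron 2 of a transcript that the table draws over 2961 kb, and 47 of the 58 were nearest to the TSS of another gene. Summed, SCR had 1569 and siPiezo2 1363, a log2 ratio of -0.20, and 9 peaks were lower and 0 higher. Frmd4a, a scaffold of cell polarity, had 33 peaks and densities of 1062 and 960. Its 16 peaks of intron 2 had a median of -0.33, introns 3, 4, 6 and 12, with 2 or 3 peaks each, had medians of 0.13 to 0.34, and single peaks in introns 8, 14 and 15 were lower, at -0.76, -0.75 and -0.92. Rad51b, of homologous recombination, had 32 peaks with 12 lower and 0 higher and a log2 ratio of -0.28. The log2 ratios were nearer 0 at equal read totals, at -0.047 for Fgfr2, -0.052 for Frmd4a and -0.088 for Rad51b. Atxn1, a transcriptional regulator, had 31 peaks with 776 and 715, and its log2 ratio of -0.12 was 0.055 at equal read totals.

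Pde4d and Fbn1 had larger differences. Pde4d, a phosphodiesterase that breaks down cAMP, had 30 peaks summing to 785 for SCR against 592, a log2 ratio of -0.41 (-0.23 at equal totals), with 8 lower and 0 higher. Its 20 peaks of intron 3 had a median of -0.44 and its 5 peaks of intron 7 one of -0.026. Fbn1, which codes for fibrillin-1 of the extracellular microfibrils that store latent TGF-β, had 29 peaks over 17 introns summing to 1171 and 876, a log2 ratio of -0.42 (-0.34 at equal totals). Of these, 23 were below 0, 8 were lower and 0 higher. Among its lower peaks were a pair in intron 2, with densities of 72.4 and 31.5 in the first and 70.0 and 34.1 in the second, whose windows overlap. Further lower peaks lay in intron 6 (59.6 and 28.5), intron 13 (59.1 and 29.2) and intron 63 (33.5 and 17.6), while a peak in intron 54 had 34.8 and 46.2. All 29 were nearest to the TSS of another gene in the table.

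Of the remaining genes with the most peaks, Lrmda had 28 peaks and a log2 ratio of -0.30, the aminopeptidase gene Aopep 27 and -0.28, and Lpp, a LIM protein of focal adhesions, 27 and -0.22. These were -0.075, -0.19 and -0.098 at equal read totals. Syn3 and Ttc28 also had 27 peaks, with log2 ratios of -0.43 and -0.35, and of -0.29 for both at equal totals. Msi2, an RNA-binding protein, had 27 peaks and was above 0, with summed densities of 835 and 878 and a log2 ratio of 0.073 (-0.037 to 0.18 over peaks with separate windows), and 0.17 at equal totals. Without Syn3 and Ttc28, promoter peaks were present for 5 of these 10 genes and had log2 ratios of 0.27 in Fgfr2, -0.23 in Frmd4a, -0.13 in Pde4d, 0.16 in Lrmda and 0.012 in Lpp.

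Among hosts with 5 or more later intron peaks, the lowest 8 had log2 ratios of -0.86 to -0.75. Megf10, a receptor for engulfment of cell debris, had 7 peaks, all below 0, with densities between 20.7 and 53.1 for SCR and between 10.4 and 24.1 in siPiezo2. They summed to 225 and 123, a log2 ratio of -0.86. Nrg1, which codes for neuregulin, the ligand of ErbB receptors, had 7 peaks in introns 5 to 11, all below 0 and 6 of them lower. The strongest, in intron 5, had densities of 61.5 and 31.9, and the lowest, in intron 11, had 40.5 and 17.7. Summed, Nrg1 had 236 against 132, a log2 ratio of -0.84, while its promoter peaks had 39.7 and 35.9. Tcf12, a basic helix-loop-helix transcription factor, had 7 peaks, all called in SCR only and all below 0, summing to 156 and 87.9, with a promoter at 52.3 and 39.8. In Phldb2, 6 of 7 peaks were below 0 and they summed to 287 and 163, a log2 ratio of -0.81 (-0.69 over peaks with separate windows). Its promoter had 56.2 and 62.1. Gm34719, Slc10a7, Gpatch2 and Tex14 completed the 8, at -0.81, -0.77, -0.77 and -0.75. All 8, picked for low ratios in these same reads, had a ratio below 0 at equal read totals, between -0.72 and -0.58.

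The highest 8 hosts had log2 ratios of 0.39 to 1.04. In 2700054A10Rik, 5 peaks summed to 272 in SCR and 563 in siPiezo2, with 4 of them higher. Arhgap26 stands in the table under 2 gene identifiers. The 5 peaks of the first, ENSMUSG00000118193, summed to 87.6 and 134, a log2 ratio of 0.61, and the 11 of the second, ENSMUSG00000036452, had a log2 ratio of -0.052. Meis1, a homeobox transcription factor, had 7 peaks in introns 6 to 9, all above 0, of which 6 had been called in both libraries and all 7 were nearest to the TSS of another gene. Its strongest, in intron 6, had densities of 41.5 and 59.9, and its highest, in intron 8, had 19.0 and 30.9. They summed to 162 and 222, a log2 ratio of 0.45, while the Meis1 promoter had 40.9 and 28.7. In Zcchc24, a zinc finger protein, 6 of 6 peaks were above 0 and summed to 156 and 213, while its promoter had 23.0 and 18.5. Zfp423, a transcription factor of adipocyte precursors, had 5 of 5 peaks above 0 with sums of 94.2 and 126. Rapgef2, Shb and Galk2 had log2 ratios of 0.54, 0.53 and 0.39. All 8, picked for high ratios in these same reads, had a ratio above 0 at equal read totals, between 0.49 and 0.94.

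**Figure D3:**
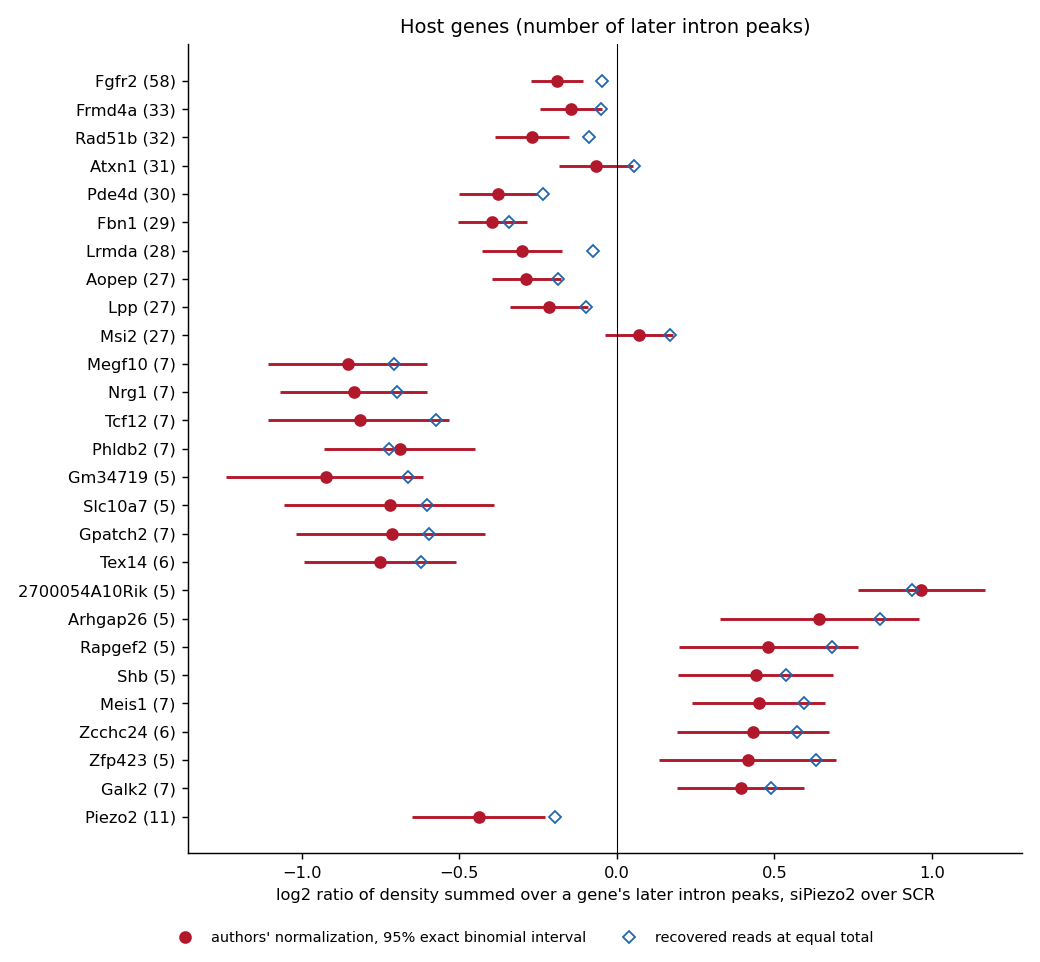
Points are the log2 ratios of density summed over a gene's later intron peaks with separate windows on the authors' scale, with 95% exact binomial intervals as bars, and diamonds are all its peaks at equal read totals. Numbers in brackets are later intron peaks. The 8 lowest and 8 highest genes, picked for their ratios, keep their side of 0 under both scalings, while Atxn1 changes side.

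Piezo2, the target of the siRNA, had 11 later intron peaks, which show chromatin at the gene and are no measure of its mRNA. Their densities summed to 249.5 for SCR and 189 for siPiezo2, a log2 ratio of -0.40 (-0.44, with an interval of -0.65 to -0.23, over peaks with separate windows), and -0.20 at equal read totals. The strongest, in intron 3 (chr18:63340844-63341359), had 62.3 and 27.3. It was the only 1 of the 11 called lower. Without it, the other 10 summed to 187 and 162, a log2 ratio of -0.21, which was 0.036 at equal totals. The highest ratio, 1.46, came from a weak peak of intron 2 with 4.55 and 14.3, from 9 and 25 reads. No promoter peak of Piezo2 was in the table.

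**Figure D4:**
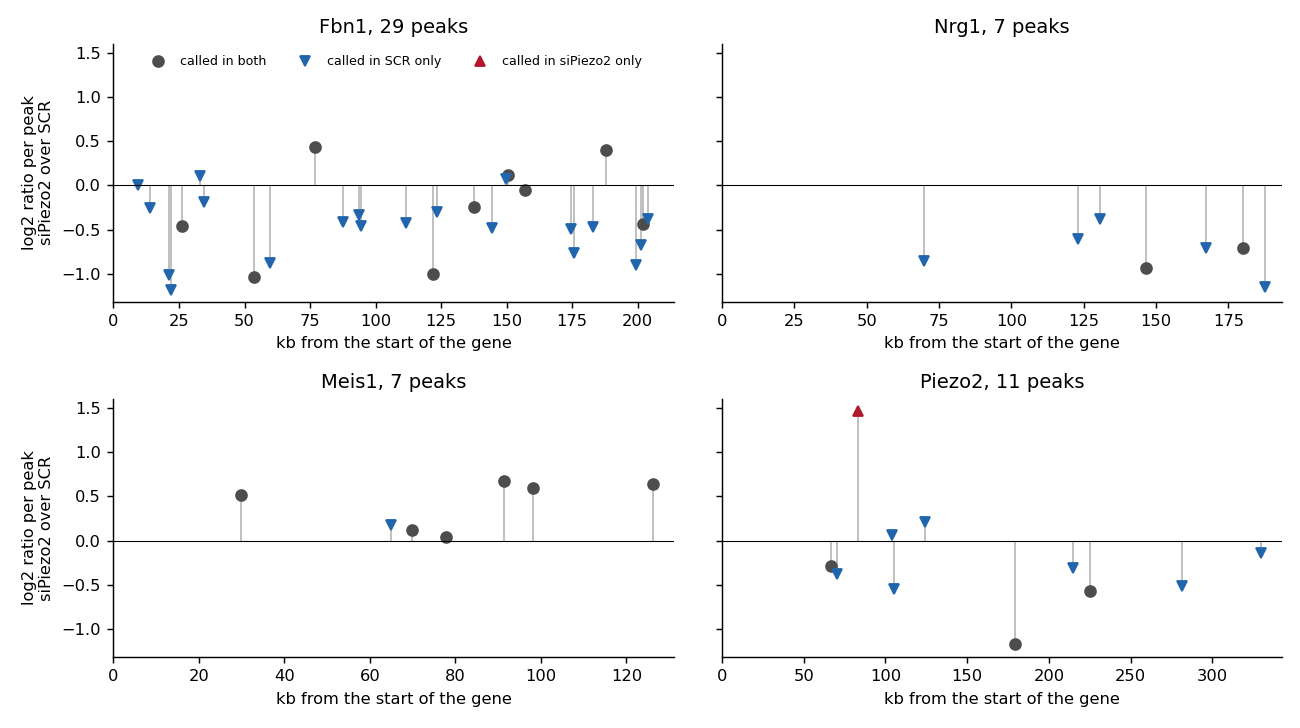
Each point is 1 later intron peak of Fbn1, Nrg1, Meis1 or Piezo2, placed by its distance from the start of the gene in kb and by its log2 ratio, siPiezo2 over SCR, with the symbol giving the library in which it was called. All 7 peaks of Nrg1 lie below 0 and all 7 of Meis1 above it, and 23 of 29 in Fbn1 lie below.

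Genes of fibroblast activation, signalling and adhesion, with housekeeping genes beside them, were examined through 11 lists, which held 1674 later intron peaks in all. Of these, 286 (17.1%) were lower and 45 (2.69%) higher, with a median of -0.21, against 15.3%, 3.29% and -0.17 over all later intron peaks. At equal read totals 10.45% were lower and 7.17% higher, against 8.18% and 8.65%. Some genes are on more than 1 list. Counting intervals of a gene's summed ratio lay below 0 for 38.4% of the host genes on the lists, against 17.7% of all hosts and 38.9% of hosts with 5 or more peaks. These shares were 17.0%, 8.45% and 15.7% at equal read totals.

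Myofibroblast markers had few such peaks. Only 5 of the 16 listed genes had any, with 8 peaks in all. Of these, 5 (62.5%) were lower and 0 higher, against 15.3% and 3.29% of all later intron peaks. At equal totals 3 (37.5%) were lower and 0 higher, against 8.18% and 8.65%. The counting interval lay below 0 for 4 of the 5 genes, against 17.7% of all hosts, and for 2 at equal totals, against 8.45%. For Col1a2 and Itgbl1 its upper end was only -0.0088 and -0.0037. Ccn2, a matricellular target of TGF-β and YAP, had a peak in intron 3 of 4 (chr10:24472171-24472891) with densities of 211 and 119.7, from 600 and 167 reads, a log2 ratio of -0.81 (-1.07 to -0.56) and of -1.09 at equal totals. The gene spans 3.24 kb, and the window of this peak takes in a TSS of another gene 0.475 kb away. Fn1, which codes for fibronectin, had a peak in intron 6 of 44 (chr1:71682440-71682888) with 73.7 and 43.0, a log2 ratio of -0.76 (-1.19 to -0.35). For Col1a2, of type I collagen, a peak in intron 3 had 29.8 and 18.7. Itgbl1, an integrin beta-like protein, had 4 peaks in intron 2, of which 3 were below 0 and 1, with 29.5 and 34.1, was above. The fifth gene, Meox1, a homeobox transcription factor, had 1 peak with 26.6 and 27.5, a log2 ratio of 0.046.

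Later introns of other matrix genes were mixed. In the list of extracellular matrix structure, 42 of 58 genes had 213 peaks, of which 31 (14.6%) were lower and 9 (4.23%) higher, with a median of -0.15, and with 18 lower, 18 higher and a median of -0.036 at equal totals. Beside Fbn1, the genes with most peaks were Ltbp1, which binds latent TGF-β, with 17 peaks and sums of 430 and 442, Col4a2, of basement membrane collagen, with 15 peaks and 682 and 687, and Col14a1 with 11 peaks and 280 and 264. The ratio of Col14a1 turned to 0.084 at equal totals, and that of Ltbp1, at 0.041 over all its peaks, was -0.055 over peaks with separate windows. Matn2, with 11 peaks as well, had a log2 ratio of -0.16 (-0.056 at equal totals). The counting interval lay below 0 for 12 genes and above 0 for 4, and at equal totals below for 6 and above for 7.

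Focal adhesion genes had a larger share of lower peaks than later introns as a whole. This list had 175 peaks in 33 of 50 genes, of which 37 (21.1%) were lower and 2 (1.14%) higher, with a median of -0.23. At equal read totals 14.3% were lower and 5.71% higher, with a median of -0.087. The counting interval lay below 0 for 13 genes (39.4%) and above 0 for 1, and for 10 (30.3%) and 1 at equal totals. Below 0 were also 17.7% of all hosts and 38.9% of hosts with 5 or more peaks, and 8.45% and 15.7% at equal totals. The tensins, which link integrins to actin, had most peaks. Tns3 had 20 peaks, 17 below 0, with sums of 681 and 536 and a log2 ratio of -0.35, and Tns1 had 14, 13 below 0, with 699 and 553 and a log2 ratio of -0.34. The adaptor gene Bcar3 had 11 peaks and a log2 ratio of -0.20 (-0.049 at equal totals), and the collagen receptor gene Ddr2 had 10 peaks with 375 and 378. Itgb5 and Parva also had 10 peaks, with log2 ratios of -0.22 and -0.20. The following genes were singled out after their values were seen. Both peaks of Itgav, the integrin subunit that binds latent TGF-β, were lower, with 52.4 and 27.7 in the first and 61.3 and 34.6 in the second. Fhl2, a LIM protein, had 94.2 and 47.6 in intron 5, 30.2 and 25.7 in intron 3, and 38.5 and 18.3 in intron 2. Bcar1, an adaptor of integrin signalling, had 1 peak with 103 and 58.9.

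SRF targets had the lowest median among the lists with over 10 peaks, at -0.26, and -0.15 at equal read totals. The smaller lists of myofibroblast markers (8 peaks) and housekeeping genes (7 peaks) had lower medians, at -0.62 and -0.27. At equal totals these were -0.40 and -0.090. Serum response factor (SRF) drives contractile genes. This list had 101 peaks in 24 of 42 genes, with 18 (17.8%) lower and 4 (3.96%) higher, and at equal totals 15.8% lower and 6.93% higher. The counting interval lay below 0 for 12 of 24 genes and above 0 for 0, and at equal totals for 9 (37.5%) and 0, where 38.9% and 15.7% of all hosts with 5 or more peaks lay below 0. Mical2, an actin oxidase, had 15 peaks with 11 below 0 and sums of 694 and 576, a log2 ratio of -0.27 under both scalings. Pdlim5, a LIM protein of actin filaments, had 14 peaks with 317 and 263. Mylk, the myosin light chain kinase, had 10 peaks with 282 and 256 and Cald1, caldesmon, 7 with 257 and 237. The ratio of Mylk turned to 0.0093 at equal totals, and that of Cald1 to 0.026 with the median of ratios. Chosen after its value was seen, Tpm1, a tropomyosin, had 1 peak in its last intron with 57.5 and 31.1, a log2 ratio of -0.86 (-1.37 to -0.38).

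In the wider actin list, 245 peaks lay in 43 of 65 genes, with 39 (15.9%) lower, 9 (3.67%) higher and a median of -0.19, and with 23 lower, 20 higher and a median of -0.051 at equal totals. Lpp had the most, followed by the myosin Myo1d with 15 peaks and sums of 406 and 349, Pdlim5, and the formin Fhod3 with 13 peaks and 319 and 290. The ratio of Fhod3 turned to 0.044 at equal totals.

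Genes of the TGF-β and Hippo pathways followed. In the TGF-β and SMAD list, 92 peaks lay in 25 of 38 genes, with 18 (19.6%) lower and 3 (3.26%) higher and a median of -0.18, and with 9.78% and 6.52% at equal totals. Ski, a repressor of SMAD signalling, had 11 peaks, 10 of them below 0 and 4 lower, with sums of 539 and 396, a log2 ratio of -0.44, and -0.42 at equal totals. Tgfbr3, betaglycan, had 8 peaks with 187 and 204, and Acvr1, a type I receptor, had 6 with 162 and 115. In the Hippo list, 104 peaks lay in 23 of 36 genes, with 13 (12.5%) lower and 2 (1.92%) higher and a median of -0.20, and with 11.5% and 2.88% at equal totals. Pard3, a polarity protein, had 14 peaks with 285 and 263, Wwtr1, which codes for TAZ, had 13 with 306 and 260, the cadherin gene Fat1 had 8 with 261 and 211, and Vgll4, a TEAD cofactor, had 8 with 308 and 273. The ratio of Pard3 turned to 0.11 at equal totals. Those of Wwtr1, Fat1 and Vgll4 were -0.24, -0.30 and -0.17, and -0.040, -0.18 and -0.12 at equal totals.

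Transcription factor and receptor genes held many of the peaks. In the list of fibroblast identity and transcription factors, 266 peaks lay in 37 of 54 genes, with 46 (17.3%) lower, 4 higher and a median of -0.21, and with 26 lower, 20 higher and a median of -0.035 at equal totals. Ebf1 had 23 peaks, 20 below 0, with sums of 559 and 450, and Nfia had 18 peaks with 541 and 445, while Zfhx3 had 19 with 523 and 468 and Foxp1 15 with 342 and 303. The ratio of Foxp1 turned to 0.023 at equal totals. Those of Ebf1, Nfia and Zfhx3 were -0.31, -0.28 and -0.16, and -0.12, -0.14 and -0.020 at equal totals. In the list of growth factor receptors and kinases, 350 peaks lay in 41 of 48 genes, with 62 (17.7%) lower, 12 (3.43%) higher and a median of -0.22, and with 37 lower, 25 higher and a median of -0.021 at equal totals. Of the 350, 58 were assigned to Fgfr2, and 47 of those were nearest to the TSS of another gene. Beside Fgfr2 and Pde4d, Prkg1, the cGMP-dependent kinase, had 23 peaks, 20 below 0, with 508 and 394 and a log2 ratio of -0.36 (-0.16 at equal totals), and Itpr1, the calcium release channel, had 23 with 728 and 628. In the list of axon guidance and cell adhesion, 228 peaks lay in 43 of 49 genes, with 40 (17.5%) lower, 6 (2.63%) higher and a median of -0.22, which was 0.0041 at equal totals, with 20 lower and 21 higher. Slit3 had 21 peaks with 447 and 411, Kirrel3 18 with 453 and 378, Ctnna3 13 with 307 and 250, and Plxna4 13 with 334 and 277. The ratio of Slit3 turned to 0.091 at equal totals and 0.017 with the median of ratios. Those of Kirrel3, Ctnna3 and Plxna4 were -0.26, -0.30 and -0.27, and -0.088, -0.11 and -0.087 at equal totals. Housekeeping genes had 7 peaks in 7 of 49 genes, with 1 lower and 0 higher and a median of -0.27 (-0.090 at equal totals). Those of Actr3, Cltc, Pdia3 and Psmd1 had log2 ratios of -0.12, -0.27, -0.49 and 0.27, and that of Actr3 turned to 0.12 at equal totals. Snrpd3, Tbp and Ywhaz had 0.47, -1.20 and -0.34.

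**Figure D5:**
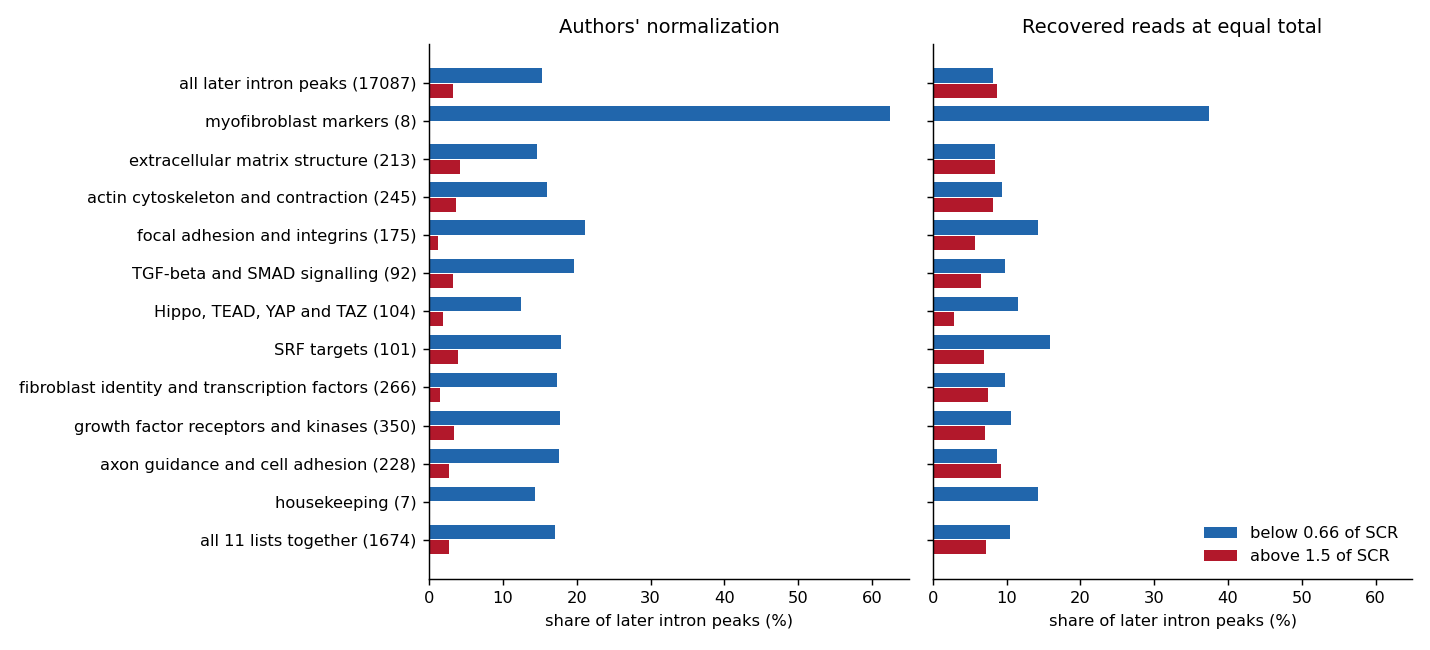
Bars are the share of later intron peaks, in percent, below 0.66 (blue) and above 1.5 (red) of SCR in each gene list, with the number of peaks in brackets, on the authors' scale (left) and at equal read totals (right). On the left 15.3% of all later intron peaks are lower and 3.29% higher, and on the right 8.18% and 8.65%.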

How the data were processed

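Both libraries of the series were used. Per the labels, samples were assigned by title and treatment, and dose and time come from the legend of the study's ATAC-seq figure. The authors aligned reads (BWA 0.7.12 and mm10, per the submitters' processing notes), called peaks with MACS2 and deposited 1 annotated table. Its gene coordinates are those of GRCm39, the genome in use here was GRCm38, and sequences and motifs were not analysed here. The signal columns are the authors' normalized read densities, a read coverage per peak. The deposited log2 ratio, log2 mean and p-value columns are the authors' comparison and were not used.

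The ratio was log2 of density plus 1. Reads in 2000 bp windows were recovered from both densities by undoing the authors' linear fit (intercept -0.248, slope 0.174; 99.994% of peaks whole within 0.01 read), and 1 read was taken off as the pseudocount, an assumption. Intervals are 95% exact binomial (Clopper-Pearson) and cover counting error only. Named were the 10 lowest and 10 highest peaks of the strongest 25% by mean log2 density, the 10 genes with most later intron peaks, the 8 lowest and 8 highest genes with at least 5, up to 4 genes with most peaks per list, and Piezo2. Ties in number of peaks were broken by symbol, and tied genes left out that way are also given. Host genes are those of the annotated transcript. These members and the lists were chosen with earlier results of these data known. Alternatives were a pseudocount of 0.1, 3 scalings, a fold of 2, stronger peaks, peaks called in both libraries and autosomes. Strength by mean density, separate windows, the read left on, intervals at equal totals and Piezo2 without its strongest peak were added after seeing the data. Read recovery and intervals were tested on simulated data. Versions in use were matplotlib 3.10.9, scipy 1.17.1, pandas 2.3.3, numpy 2.4.6 and Python 3.11.15.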

Additional observations from a re-analysis of the deposited data

How the results depend on the processing

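With 1 library per condition no replicate could be left out. No paired analysis was possible because each condition has 1 library. The later intron median of -0.17 became -0.035 with the median of ratios, which moved all ratios up by 0.14, -0.085 at equal total density, -0.15 among the stronger 50% of peaks and -0.032 among peaks called in both libraries. It was 0.0077 with recovered reads at equal totals and 0.015 with 1 read not taken off as well. The 2607 lower and 563 higher peaks became 1632 and 1057 with the median of ratios, 991 and 221 among the stronger 50%, 347 and 243 among peaks called in both libraries, where fewer peaks enter, 1398 and 1478 at equal read totals, 1310 and 1416 with the read left on, and 535 and 81 at a fold of 2. Later minus first introns was 0.0065 at equal read totals and 0.0094 with the read left on. Later introns minus distal intergenic peaks was -0.0065 among peaks called in both libraries, -0.012 at equal totals and -0.0088 with the read left on, and later introns minus promoters was -0.077, -0.041 and -0.031. At equal read totals the medians were 0.0077, 0.018, 0.0075 and 0.015 for introns 2, 3, 5 and 6 or later, while intron 4 stayed below 0 at -0.0023, 0.022, 0.0076, 0.015, 0.0076 and 0.015 for the 5 ranges of distance from near to far, and 0.0041 for the axon guidance list. Atxn1 was 0.021 with the median of ratios and 0.055 at equal totals, Slit3 0.017 and 0.091, Foxp1 0.023 at equal totals, and Piezo2 0.036 at equal totals without its intron 3 peak. Of the entries of named peaks, 40 of 40 kept their direction under each of the 3 scalings, with 14 peaks entered under both choices of strong peaks. These peaks were picked for extreme ratios in the same reads, so their direction is little of a check. Of the named genes, 57 of 65 kept theirs with the median of ratios and at equal read totals. Those that turned under either, beside Atxn1, Slit3 and Foxp1, were Col14a1, Fhod3, Pard3, Mylk, Cald1 and Actr3, and Ltbp1 turned over peaks with separate windows. The causes were not tested. Depth limits single weak peaks, and the motif comparison was not run.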

Other observations

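On the authors' scale, later intron peaks on the X chromosome were lower than those of the autosomes. They were not compared at equal read totals. The 161 peaks on X had a median log2 ratio of -0.28, with 38 (23.6%) lower and 3 (1.86%) higher, against a median of -0.17, with 15.2% lower and 3.30% higher, for 16922 on the autosomes. The peaks on X held a median of 39 reads in SCR, against 53 on the autosomes. The weakest of the 4 groups of later intron peaks held 36 and had a median log2 ratio of -0.23. The part of strength in the difference of X was not tested. First intron and distal intergenic peaks on X had medians of -0.25 and -0.27, and X promoters -0.063. Among the autosomes, the later intron medians lay between -0.21, on chromosome 9, and -0.13, on chromosome 5.

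Later introns of marker genes of other cells, are described here after their values were seen. Rgs5, a pericyte marker without a peak near its TSS, had 2 neighbouring peaks in intron 3 of 4, with densities of 23.7 in SCR and 3.91 in siPiezo2 (52 and 6 reads) in the first and of 27.2 and 8.12 (62 and 13 reads) in the second, whose windows overlap. Cdh5, of endothelial junctions, had a peak in intron 2 with 47.7 and 78.0, a log2 ratio of 0.70 (0.32 to 1.08). The medians of later intron peaks were 0.012 for 14 peaks of cardiac fibroblast markers, -0.34 for 13 of endothelial, -0.13 for 10 of macrophage and leukocyte, -0.042 for 3 of cardiomyocyte, -0.037 for 11 of smooth muscle and pericyte and -0.19 for 4 of epicardial markers. Among housekeeping genes, the lower peak was in intron 5 of Tbp, the TATA-binding protein, with 45.1 and 19.1.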
